A study of Mus musculus with 26 samples.

Results

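The 34 genes described here drive or mark the phases of the cell cycle, and they were taken by symbol from the 55401 Ensembl gene rows of bulk RNA sequencing of mouse lung group 2 innate lymphoid cells (ILC2s). They were sorted by phase into 6 genes of G1 and the G1/S boundary, 10 genes of S phase, 17 genes of G2 and mitosis (G2/M), and Stmn1, which belongs to no single phase. ILC2s sorted from the lungs of naive wild-type mice were sequenced without culture in 3 C57BL/6J and 3 CC030GeniUnc (CC030, a Collaborative Cross recombinant inbred strain) females, after lineage depletion, CD25 enrichment and a gate on lineage-negative, CD90+, CD127+, CD25+, ICOS+ cells. In a second experiment, ILC2s of 5 CC030 mice, gated on lineage-negative, CD90+, CD127+, ST2+ cells, were kept apart by mouse and cultured at 3000 cells per well. All these cultures received IL-2 at 100 U/mL, and both TSLP and IL-33 at 10 ng/mL, with DMSO vehicle or 10 µM AR420626, an agonist of the fatty acid receptor FFAR3, and were harvested at day 2 or day 6, which gave 4 groups of 5 libraries. All mice were female and 8 to 16 weeks old, per the study's methods.

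A cell that enters the cycle first raises D-type cyclins, which activate CDK4 and CDK6 and release E2F factors from the retinoblastoma protein. E2F then turns on the genes of DNA replication, such as Pcna, the Mcm helicase subunits and the enzymes of nucleotide synthesis. Later, B-MYB and FOXM1 with the MuvB complex turn on the mitotic genes, such as the B-type cyclins, the kinases Cdk1, Plk1 and Aurka, and the spindle proteins. ILC2s of the resting lung are long-lived tissue cells that divide little until alarmins such as IL-33 activate them, and naive C57BL/6J levels of S phase genes were therefore set against those of G2/M genes.

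The promoters were searched for letters of these programmes, and 6 of them are printed here as examples. E2F letters were more frequent in S members and CHR letters in G2/M members, whereas CCAAT was frequent in both. RefSeq start sites (GRCm38.p6), with 250 bases before and 50 after each start, were at hand for 29 of the 34 members, and not for Ccnd2, Ccne2, Ccna2, Aurkb and Stmn1. The letters searched for E2F were TTCCCGC or else TTCGCGC, besides TTGCCGC or else TTGGCGC, those of the cell cycle genes homology region (CHR, bound by MuvB) were TTTGAA or else TTCGAA, and the third was CCAAT (bound by NF-Y). Each was searched on both strands. E2F letters were found in 6 of 10 S members (60.0%) and 3 of 15 G2/M members (20%), beside 10.9% of 27025 genes with a promoter. CHR letters were found in 2 of 10 S members (20%) and 13 of 15 G2/M members (86.7%), beside 21.7% of all genes. CCAAT was found in 8 of 10 S members (80.0%) and 14 of 15 G2/M members (93.3%), beside 41.1% of all genes, and both CHR and CCAAT stood in 13 of 15 G2/M members, beside 9.65% of all genes. A match of letters is a description and not a bound site. The bases before the start are printed 5′ to 3′ in the direction of the gene, 140 of each, with E2F letters in capitals for the S genes Mcm6, a helicase subunit, at chr1:128359706-128359845 (reverse strand), and Rrm1, the large subunit of ribonucleotide reductase, at chr7:102441555-102441694 (forward strand).
Mcm6: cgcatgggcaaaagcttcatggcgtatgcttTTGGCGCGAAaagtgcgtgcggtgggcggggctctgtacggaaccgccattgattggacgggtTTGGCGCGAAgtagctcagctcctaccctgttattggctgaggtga
Rrm1: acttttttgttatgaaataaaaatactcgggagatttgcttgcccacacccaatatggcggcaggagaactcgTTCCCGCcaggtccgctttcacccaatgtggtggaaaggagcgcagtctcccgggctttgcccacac
For the G2/M genes, CHR and CCAAT letters are in capitals. They are Cdk1, the mitotic kinase, at chr10:69352913-69353052 (reverse strand), Cdc20, an activator of the anaphase promoting complex, at chr4:118437344-118437483 (reverse strand), Kif11, a spindle motor, at chr19:37376242-37376381 (forward strand), and Hmgb2, a chromatin protein, at chr8:57511703-57511842 (forward strand).
Cdk1: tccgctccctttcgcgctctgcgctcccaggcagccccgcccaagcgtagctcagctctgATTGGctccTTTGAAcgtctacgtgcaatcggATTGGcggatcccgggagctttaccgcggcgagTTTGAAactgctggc
Cdc20: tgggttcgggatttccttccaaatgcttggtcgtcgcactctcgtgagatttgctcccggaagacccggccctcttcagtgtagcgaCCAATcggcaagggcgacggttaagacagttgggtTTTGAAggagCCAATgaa
Kif11: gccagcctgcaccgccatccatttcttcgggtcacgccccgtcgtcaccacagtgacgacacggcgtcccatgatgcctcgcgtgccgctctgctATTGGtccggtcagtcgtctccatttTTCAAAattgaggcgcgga
Hmgb2: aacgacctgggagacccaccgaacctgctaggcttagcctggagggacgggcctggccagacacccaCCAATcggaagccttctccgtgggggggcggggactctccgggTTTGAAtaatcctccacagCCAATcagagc
Only the letters named for each phase are in capitals. CCAAT letters stay in lower case at -57 and -14 in Mcm6 and at -91 and -45 in Rrm1. Cdk1 also held E2F letters, at -178 and -130, and so did the G2/M members Mki67 and Ccnb1. In Mcm6, the E2F letters began at -109 and -46 and overlapped the reverse match at -106 and -43. CHR letters began at -71 and -15 in Cdk1, at -18 in Cdc20, at -19 on the reverse strand in Kif11 and at -30 in Hmgb2, counted back from the start site.

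**Figure D1:**
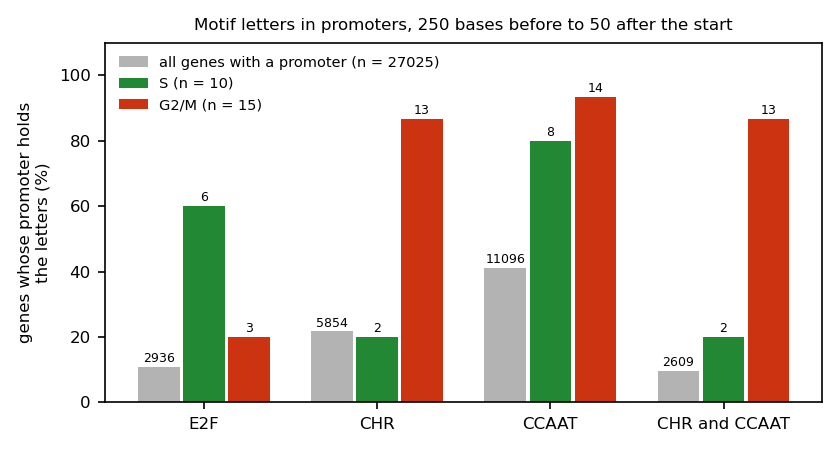
Bars give the percent of genes whose promoter window held the letters on either strand (vertical axis, percent), for all 27025 genes (grey), the 10 S members (green) and the 15 G2/M members with a promoter (red), with the number of genes over each bar. CHR letters stood in 13 of 15 G2/M and 2 of 10 S promoters, and E2F letters in 3 of 15 and 6 of 10.

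The libraries differed in ways that touch all values below. The 3 C57BL/6J libraries had 15946 to 16553 genes with a count and totals of 13533363 to 15234305, whereas the naive CC030 ones held 1324595 to 1524751 counts over 43527 to 46111 genes, and cultured libraries 227445 to 5320028 counts over 19356 to 44975 genes. The 10 ILC2 markers (Gata3, Il7r, Il1rl1 and others) summed to 7800 to 9980 counts per 1000000 (CPM) in C57BL/6J, to 264 to 286 CPM in naive CC030 and to 51.0 to 312 CPM in the cultures. The labelled cell type was therefore seen in the C57BL/6J counts and hardly in the CC030 counts. Within C57BL/6J, replicate 3 stood apart: the 4 epithelial markers summed to 11363 CPM there and to 29.3 to 56.1 CPM in the others, with the surfactant gene Sftpc at 172153 counts against 1 and 4. The 4 macrophage and monocyte markers summed to 970 CPM in replicate 3 against 0.148 and 12.8 CPM. In replicates 1, 2 and 3, the T cell markers summed to 173, 24.6 and 3.87 CPM and the B cell markers to 9.98, 29.5 and 83.9 CPM. Mast cell and basophil markers summed to 413, 667 and 205 CPM, erythroid markers to 312, 277 and 141, and endothelial markers to 3.77, 11.2 and 32.1. NK cell, neutrophil and eosinophil markers were all at 0.

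In naive C57BL/6J ILC2s, most genes of G1 and of DNA replication reached 1 CPM in every library, with Ccne1, Rrm2, Tk1 and Mcm5 as exceptions, whereas most mitotic genes were under 1 CPM in at least 1 of them. At 1 CPM or more in all 3 libraries stood 5 of 6 G1 and G1/S members (83.3%), 7 of 10 S members (70.0%) and 4 of 17 G2/M members (23.5%), beside 34.5% of 21897 protein coding genes. In bulk RNA, fewer dividing cells and less RNA per cell cannot be told apart. The 34 members together took 1290, 1776 and 2525 CPM in replicates 1, 2 and 3. Ranked by CPM per kb of exon, a scale that allows comparison between genes, 5 members formed the top: Hmgb2 at 107 ± 15.7 (SD, n = 3), Cdk4 at 94.5 ± 20.7, Pcna at 70.5 ± 16.7, Ccnd2 at 57.4 ± 23.7 and Stmn1 at 31.7 ± 18.3. The next, Ccnb2, was at 13.7 ± 19.7. Each member overlapped in range with the one below it, with 1 exception, Kif11 above Bub1, so the order of neighbours is not set by these 3 libraries.

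**Figure D2:**
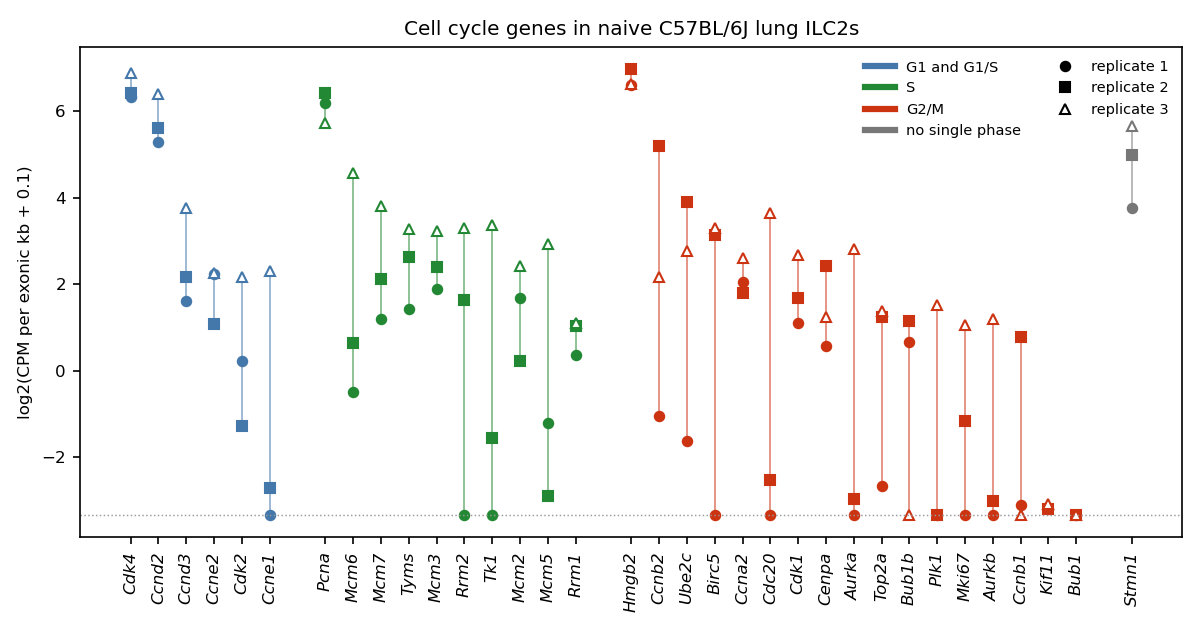
Each column is a member, grouped by phase (colour) and ordered by mean level, with log2(CPM per exonic kb + 0.1) on the vertical axis and 1 symbol per naive C57BL/6J library; the dotted line marks 0 counts. Cdk4, Ccnd2, Pcna and Hmgb2 lie close together in the 3 libraries, whereas Ccne1, Rrm2, Tk1 and many G2/M genes run from the dotted line upward, with replicate 3 (open triangles) highest in 26 of the 33 members with a count.

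Among G1 and G1/S genes, the D-type cyclin and its kinase led. Ccnd2, the D-type cyclin that mitogens induce, had 4971, 6667 and 12060 counts in replicates 1, 2 and 3. Cdk4, its catalytic partner, had 3511, 4008 and 5850 counts. Both were in the top 5 percent of protein coding genes by level per exonic kb, at percentiles 95.2 and 96.8. Ccnd3, another D-type cyclin, had 351, 558 and 1805 counts. Cdk2, the kinase that cyclin E activates at the G1/S boundary, had 90, 28 and 418 counts. Of the E-type cyclins, Ccne2 had 217, 102 and 251 counts and Ccne1 had 0, 2 and 195. All 6 were highest in replicate 3, and Ccne1 passed 1 CPM only there.

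Of the S phase members, Pcna, the sliding clamp of the replication fork, stood far above the others. It had 2372, 2967 and 1924 counts and was the only S member that was lowest in replicate 3. The 5 members of the Mcm2-7 helicase ring were lower, and each had its highest count in replicate 3. Mcm3 had 182, 282 and 529 counts, Mcm7 had 132, 271 and 941, and Mcm2 had 295, 108 and 555. Mcm6 ran from 39 and 98 to 1670 counts, and Mcm5 from 18 and 2 to 459. The enzymes of nucleotide supply divided in the same libraries. Tyms, thymidylate synthase, had 215, 537 and 890 counts, and Rrm1 had 176, 311 and 346. Rrm2, the subunit of ribonucleotide reductase that is made in S phase, had 0, 121 and 412 counts, and Tk1, thymidine kinase, had 0, 18 and 807. Rrm1 and Tyms were thus present in every library, whereas Rrm2 and Tk1 were at 0 in replicate 1.

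G2/M members were uneven, and replicate 1 held almost none of most of them. Mki67, the proliferation antigen Ki-67 (chr7:135689784-135716361, mm10), had 0, 50 and 304 counts. Top2a, the topoisomerase that untangles sister chromatids, had 7, 295 and 343 counts. Birc5, survivin of the chromosomal passenger complex, had 0, 429 and 506, and its partner kinase Aurkb had 0, 1 and 98. Replicates 2 and 3 therefore both held Top2a and Birc5, but Aurkb came from replicate 3 alone. Ube2c, the ubiquitin-conjugating enzyme of the anaphase promoting complex, had 8, 556 and 266 counts. Cdc20 had 0, 2 and 353. Plk1 had 0, 0 and 93 counts, and Aurka, the centrosomal kinase, 0, 1 and 266. These 3 mitotic regulators passed 1 CPM in replicate 3 only, as did Aurkb. The B-type cyclins went the other way, highest in replicate 2: Ccnb2 had 8, 803 and 102 counts and Ccnb1 1, 99 and 0. Bub1b, the spindle checkpoint kinase-like protein, had 86, 130 and 0 counts.

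A few G2/M members were present in all 3 libraries. Ccna2, cyclin A, had 222, 200 and 373 counts, Cdk1 136, 222 and 474, and Cenpa, the centromeric histone, 110, 446 and 202. Hmgb2 (chr8:57511907-57515999, mm10) had 3963, 5417 and 4501 counts, which made it the highest member on the per-kb scale, although mitotic genes as a group were low. Hmgb2 is also a general chromatin protein and its RNA is not limited to mitosis. At the other end, Bub1, the checkpoint kinase (chr2:127801122-127831865, mm10), had 0 counts in all 3 libraries, where 3 counts, the limit that a count of 0 allows, equal 0.197 to 0.222 CPM. Kif11 had 1, 1 and 2 counts. Stmn1, the microtubule-destabilising stathmin (chr4:134468320-134473843, mm10), had 352, 872 and 1466 counts.

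Set against each other, the median S gene was above the median G2/M gene in each library, by amounts that differed widely. The median level was 1.69, 2.49 and 9.68 CPM per exonic kb over the 10 S members in replicates 1, 2 and 3, and 0.0175, 2.11 and 2.78 over the 17 G2/M members. Medians of the 6 G1 and G1/S members were 3.77, 3.22 and 9.16. On the log2 scale with 0.1 added, S minus G2/M was 3.87, 0.20 and 1.77, a mean of 1.95 ± 1.84 (SD, n = 3), so replicate 2 had nearly equal medians while replicate 1 had G2/M genes close to 0. Members at 0 counts numbered 7, 2 and 3 of 17 in G2/M and 2, 0 and 0 of 10 in S. The summed CPM, which a few high genes such as Hmgb2 set, went the other way in replicates 1 and 2: it was 253, 327 and 560 over the S members and 336, 600 and 517 over the G2/M members in replicates 1, 2 and 3. No test was made, since members share their library and 3 libraries allow no small p. Without replicate 3, the library with epithelial and macrophage RNA, the mean was 2.03, and without replicate 1 it was 0.98. The share of that RNA in the members' levels was not tested. Replicate 3 was the highest library in 26 of 33 members with a count (78.8%), against 49.7% of 13489 genes at 1 CPM or more, and replicate 1 was the highest in 0 of 33, against 24.6%.

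**Figure D3:**
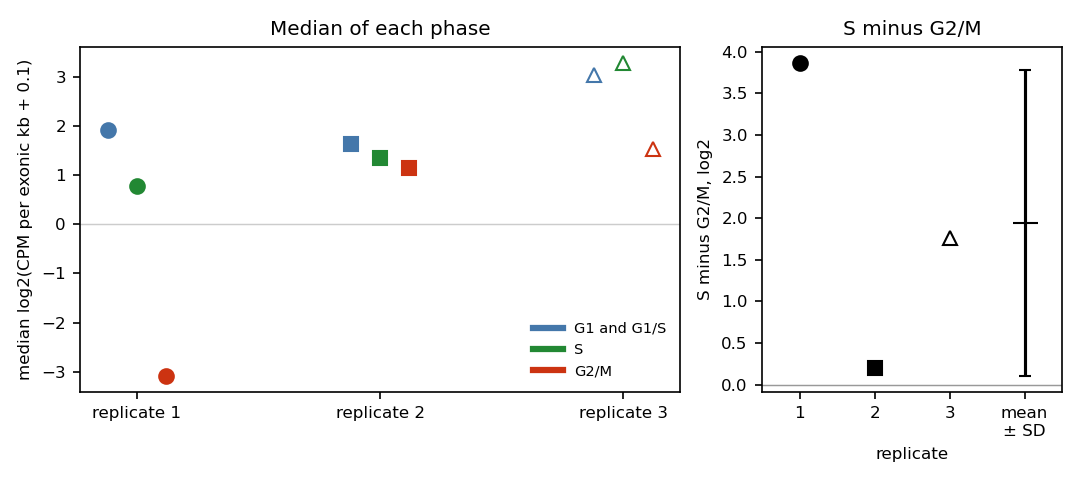
Left, the median log2(CPM per exonic kb + 0.1) of the G1 and G1/S (blue), S (green) and G2/M (red) members in each naive C57BL/6J library; right, S minus G2/M in each library with the mean and SD. S minus G2/M is largest in replicate 1 (3.87), lower in replicate 3 (1.77) and near 0 in replicate 2 (0.20).

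Among the other genes of the pathway, several inhibitors were high and the mitotic activators were near 0 in the same libraries. Among 17 CDK inhibitors and quiescence genes, the 4 highest by mean level per exonic kb were the anti-proliferative factors Btg1 at 139 ± 18.1 CPM per kb and Btg2 at 81.8 ± 42.8, the retinoblastoma gene Rb1 at 46.2 ± 7.13 and the CDK4 inhibitor Cdkn2d at 40.4 ± 9.55 (SD, n = 3), and 13 of 17 reached 1 CPM in all 3 libraries. Among 16 G1 drivers and E2F factors, the highest were Myc at 30.1 ± 26.7, E2f5 at 17.2 ± 10.7, E2f4 at 13.1 ± 18.5 and the E2F partner Tfdp1 at 7.74 ± 4.53. E2f4 and E2f5 are the E2F factors that repress in resting cells. Of the 7 genes of MuvB, B-MYB and FOXM1, the core subunits led, with Lin37 at 64.2 ± 12.2, Rbbp4 at 10.6 ± 7.35, Lin52 at 6.01 ± 1.23 and Lin54 at 1.41 ± 1.31. The activators, named here after their values were seen, were almost absent: Mybl2, encoding B-MYB, had 0 counts in all 3 libraries and Foxm1 had 1, 0 and 0. In the 17 genes of the anaphase promoting complex and spindle checkpoint, Pttg1 (securin) led at 162 ± 58.6, followed by Anapc11 at 63.8 ± 22.5, Bub3 at 44.1 ± 19.7 and Anapc10 at 30.7, with 2946, 2337 and 993 counts. In the longer lists the phases lay closer together by the share at 1 CPM. In all 3 libraries, 25 of 43 S genes (58.1%) and 22 of 54 G2/M genes (40.7%) reached that level. Both shares were above the 34.5% of protein coding genes, whereas the 23.5% of the G2/M members was below it. Library by library, the G2/M members were below the share of protein coding genes in replicate 1 only. By median level, S minus G2/M with the longer lists was 3.44, 0.63 and 1.02 on the log2 scale in replicates 1, 2 and 3. The mean was 1.69, beside 1.95 with the members, whose replicate 2 stood at 0.20. The highest of the longer S list were Tipin at 71.9 ± 14.6, Pcna, Gmnn (geminin) at 42.5 ± 15.7 and Slbp at 41.4 ± 16.6, and of the longer G2/M list Jpt1 at 145 ± 23.6, Hmgb2, Cks1b at 85.3 ± 46.4 and Tubb4b at 40.8 ± 41.7.

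CC030 counts need a caution on gene positions, because CC030 reads were aligned to a pseudogenome built on mm9 and moved to mm10 coordinates before they were counted. The levels of the genes within 4 Mb of each member were compared between naive C57BL/6J and each CC030 group by Spearman's rho over genes that share libraries and neighbourhood, and at the same position the median rho over the 34 members was 0.0746 in naive CC030 and 0.156 in vehicle cultures at day 6, with a range of -0.131 to 0.372 at day 6. Levels here were divided by exon length. Without that division the day 6 median was 0.416, and log2 CPM followed exon length with a rho of 0.493 in C57BL/6J and 0.754 in vehicle day 6. The CC030 counts were also slid by up to 3 Mb, and the shift with the highest rho was noted. The highest of so many values exceeds most single ones by construction, so only the place of the shift is given. At day 6 it was within 5 kb of 0 for 1 of 34 members, Mcm3. Some members on the same chromosome shared a shift: Tk1, Top2a and Birc5 on chromosome 11 each matched best at 139 kb, and Pcna at 175 kb, Bub1 at 178 kb, Bub1b at 173 kb and Ube2c at 174 kb on chromosome 2. Some of these had neighbours in common, and Tk1 and Birc5 nearly all of them. Other members did not share a shift. Aurkb on chromosome 11 was at 186 kb. On chromosome 7, Ccne1, Rrm1, Mki67 and Plk1 were at -799, 29, -685 and 1842 kb. On chromosome 8, Mcm5 and Hmgb2 were at -2524 and 1862 kb. In both day 6 groups 21 of 34 members had the same shift within 25 kb. Chromosome 16 was different in vehicle cultures at day 6: in 20 of its 27 windows (74.1%) the best match was at the own position, with a median rho of 0.687. Over all chromosomes, chromosome 16 included, this held for 44 of 880 windows (5%), and the next highest chromosome, 8, had 9.09%. These windows were 4 Mb wide in all, whereas those around single genes reached 4 Mb to each side. No member lies on chromosome 16, but 3 genes of the longer S list do, and Mcm4, the helicase subunit that is not among the members, had a rho of 0.764 at its own position, the initiation factor Cdc45 had 0.75 and the histone chaperone Chaf1b 0.54 in that group. In naive CC030 the values at the own position were lower, at 0.263 for Mcm4, 0.199 for Cdc45 and -0.018 for Chaf1b, and the shift with the highest rho was 432 kb for Mcm4 and -1368 kb for Chaf1b. CC030 values of members are therefore given as counts at those gene rows, and which RNA they came from was not tested.

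**Figure D4:**
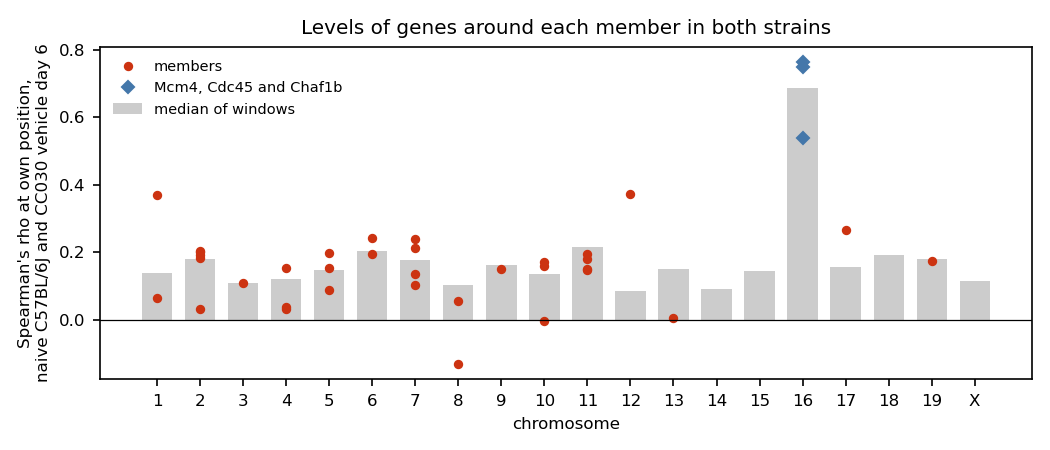
For each chromosome, the grey bar gives the median over windows of Spearman's rho between naive C57BL/6J and CC030 vehicle day 6 levels of the same genes; red points are the 34 members and blue diamonds Mcm4, Cdc45 and Chaf1b. Members lie between -0.131 and 0.372, whereas chromosome 16 stands at 0.687.

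Between naive CC030 and naive C57BL/6J, 33 members could be tested with the quasi-likelihood test of edgeR, and Cdc20, with at most 2 counts in CC030, fell under the filter on low counts. Counts were higher in CC030 at 2 members, Bub1 and Kif11, where 64.1% of all 35551 genes tested were called higher. They were lower at 5 members, Ccnd2, Cdk4, Pcna, Hmgb2 and Stmn1, where 12.2% of all genes were called lower. The median log2 fold change was -0.43 over the 33 members and 7.03 over all genes tested, or 7.56 over all genes with the size factors of DESeq2. The median over all genes depended on the filter and was 0.02 with at least 10 counts in every library. The TMM scaling factors of the fit were 0.5999 to 0.7538 in C57BL/6J and 1.516 to 1.557 in CC030 libraries. Fitted changes between the strains therefore lie lower than those of plain CPM. With the size factors of DESeq2 in edgeR, the fitted change was -3.94 at Ccnd2, -4.72 at Cdk4, -3.67 at Pcna and -2.24 at Stmn1. At Bub1, CC030 had 63, 117 and 79 counts against 0 in C57BL/6J, a level at least 283-fold higher (floor of 3 counts per library, adjusted p = 0.00046, edgeR). Hmgb2 had 0 counts in all 3 naive CC030 libraries, and in all 20 cultured ones, and was at least 155-fold lower (adjusted p = 0.00046, edgeR). The gene with no counts in one strain was thus the highest member in the other. Cdk4 had 31, 26 and 17 counts and a log2 fold change of -5.33 ± 0.44 (SE), Ccnd2 had 66, 62 and 94 counts and -4.56 ± 0.42, and Pcna 29, 18 and 45 counts and -4.23 ± 0.52, each with an adjusted p of 0.00046 (edgeR). Stmn1 fell by 2.88 ± 0.54 on the log2 scale, and Kif11, with 71, 123 and 101 counts against 1, 1 and 2, rose by 8.14 ± 0.76. Counts of Kif11 pooled over libraries, 295 in CC030 and 4 in C57BL/6J, gave a rate per pooled total 732 times higher. Its exact 95% interval of 283 to 2710 covers counting error only. This ratio uses plain totals, whereas the fitted change uses TMM factors. Of a reference list of 12 genes of other tissues, which ILC2s do not use, 11 were called higher in CC030 as well. The remaining gene, Sftpc, was called lower (-10.4 on the log2 scale), and it is the surfactant gene that stood high in C57BL/6J replicate 3. Of the 4 highest inhibitors and quiescence genes, Btg1 fell by 7.86, Btg2 by 3.88, Rb1 by 3.69 and Cdkn2d by 3.77 on the log2 scale, and in that list 1 of 16 genes was called higher and 5 lower. On chromosome 16, Mcm4 had 546, 617 and 422 counts in C57BL/6J and 79, 46 and 55 in CC030. In CPM this is 27.7 to 42.8 and 30.7 to 59.6, ranges that overlap, with both ends higher in CC030. The fitted change, which uses the TMM factors, had the other sign and did not pass (log2 fold change -1.04 ± 0.50, adjusted p = 0.0895, edgeR). A further caution is that naive CC030 counts around Mcm4 matched C57BL/6J weakly. In the strain contrast 26 members did not pass, among them Mki67 with 171, 164 and 154 counts in CC030 (2.81 ± 1.45, adjusted p = 0.112). Leaving out C57BL/6J replicate 3 raised the members called higher from 2 to 9, and leaving out replicate 1 raised those called lower from 5 to 10.

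In the cultures, the CC030 cells had the same mice in all 4 groups, so each comparison was paired by mouse. The 3 libraries that stood apart were vehicle day 2 of mouse 5 (5320028 counts over 32347 genes), AR420626 day 2 of mouse 4 (227445 counts over 19356 genes) and AR420626 day 2 of mouse 5. Members had few counts: the median over members was 28 in vehicle day 2, 25 in AR420626 day 2, 9.5 in vehicle day 6 and 8 in AR420626 day 6 libraries, and Hmgb2 was at 0 throughout.

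Fitted changes between the days stand apart from plain CPM, because the TMM scaling factors were 0.2545 to 2.91 in vehicle day 2 and 0.3828 to 1.019 in vehicle day 6 libraries.

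From day 2 to day 6 in vehicle, 27 members were tested, Stmn1 and Mki67 were called higher and 0 lower, beside 13.6% of 15819 genes called higher and 3.73% called lower. In vehicle, Stmn1 had 18, 13, 17, 14 and 31 counts at day 2 and 814, 614, 691, 961 and 1142 at day 6 in mice 1 to 5. All 5 mice rose and the groups were far apart (log2 fold change 6.41 ± 1.02, adjusted p = 0.000633, edgeR). With AR420626, Stmn1 had 5, 13, 6, 11 and 146 counts at day 2 and 809, 359, 943, 547 and 679 at day 6, again higher in 5 of 5 mice (5.80 ± 1.26, adjusted p = 0.0119, edgeR). The call with AR420626 was lost without any 1 of mice 1 to 4 (adjusted p 0.0512 to 0.0718). It held without mouse 5 (adjusted p = 0.00016, edgeR) and without mice 4 and 5 (adjusted p = 1.5e-09, edgeR). The 2 highest day 2 values in CPM, 48.4 and 143 in mice 4 and 5 with AR420626, came from libraries that stood apart. The counts around Stmn1 matched C57BL/6J best with a shift of 444 kb in both day 6 groups, at a place where the highest C57BL/6J gene was Tmem50a, with 677 CPM. Whether the counts at Stmn1 were reads of Stmn1 was not tested.

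Without passing the test, more members lay lower than higher at day 6 in vehicle, with a fitted change below 0 in 18 of 27. The lean was shared by all genes: the median log2 fold change was -0.27 over these members and -0.33 over all 15819 genes tested. Of the 10 S members, Tyms, Mcm3 and Pcna were lower in CPM in 5 of 5 mice, with groups that did not overlap. They are named after their values were seen. The groups overlapped at the other S members, and Mcm5 was higher in 4 of 5 mice. The share of all genes whose groups did not overlap was not counted, so nothing particular to Tyms, Mcm3 and Pcna is shown. Plain CPM also fell over the reference list of 12 genes of other tissues. Its median log2(CPM per exonic kb + 0.1) was on average 1.96 in vehicle day 2 and 0.49 in vehicle day 6 libraries. Tyms was at 18.1 to 57.1 CPM at day 2 and 0 to 9.93 at day 6 (-1.88 ± 0.74, adjusted p = 0.087, edgeR). Mcm3 was at 15.6 CPM or more at day 2 and 3.73 to 10.7 at day 6 (-0.90 ± 0.68, adjusted p = 0.361, edgeR). Pcna had 15, 7, 9, 6 and 21 counts at day 2 and 1, 0, 0, 1 and 0 at day 6, too few for the filter of edgeR, and DESeq2, which kept it, called it lower.

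At Mki67, vehicle libraries had 91, 91, 73, 65 and 35 counts at day 2 and 133, 119, 143, 259 and 159 at day 6. In CPM this was 6.58 to 76.2 at day 2 and 70.5 to 125 at day 6, higher in 4 of 5 mice, with groups that overlapped. The fitted change at Mki67 was 2.09 ± 0.65 (adjusted p = 0.0316, edgeR). This call was lost without any 1 of mice 1 to 4. It was also lost with no filter on low counts (adjusted p = 0.0908) and with at least 10 counts in every library (adjusted p = 0.0961). It held without mouse 5 (adjusted p = 0.00044, edgeR) and without mice 4 and 5 (adjusted p = 8.9e-05, edgeR). Without mouse 5, 5 members were called higher and 4 lower. With AR420626, Mki67 did not pass (0.65 ± 0.37, adjusted p = 0.285), and its CPM was lower at day 6 in 4 of 5 mice.

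With AR420626, 23 members were tested between the days, 1 was called higher (Stmn1) and 1 lower (Mcm2), beside 10% and 1.14% of 14731 genes. Mcm2 fell from 34, 46, 56, 24 and 56 counts to 9, 8, 14, 3 and 16, with groups that did not overlap in CPM (-1.69 ± 0.52, adjusted p = 0.0497, edgeR), and this call was lost whichever mouse was left out.

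Mcm4 lies on chromosome 16, where CC030 counts of vehicle day 6 mostly matched C57BL/6J best at their own position. Vehicle cultures had 121, 63, 43, 45 and 522 counts at day 2 and 510, 366, 225, 1286 and 287 at day 6, which is 24.6 to 101 and 171 to 376 CPM. All 5 mice were higher at day 6 and the groups did not overlap (log2 fold change 3.26 ± 1.10, adjusted p = 0.0475, edgeR). With AR420626, 3 of 5 mice were higher at day 6 (3.17 ± 1.07, adjusted p = 0.0692), since the day 2 libraries of mice 4 and 5 were already at 431 and 411 CPM against 24.3 to 35.9 in the other three. Cdc45 rose in CPM in 5 of 5 vehicle mice, from 15.6 to 67.0 at day 2 to 80.2 to 179 at day 6, but did not pass (2.53 ± 0.90, adjusted p = 0.0578, edgeR). Chaf1b was higher in CPM in 1 of 5 mice and its fitted change was 1.10 ± 0.49 (adjusted p = 0.13). Of the longer S list, 4 of 35 genes tested were called higher and 0 lower in vehicle, and of the longer G2/M list 5 of 45 higher and 3 lower. The shares over all genes in this contrast were 13.6% higher and 3.73% lower.

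**Figure D5:**
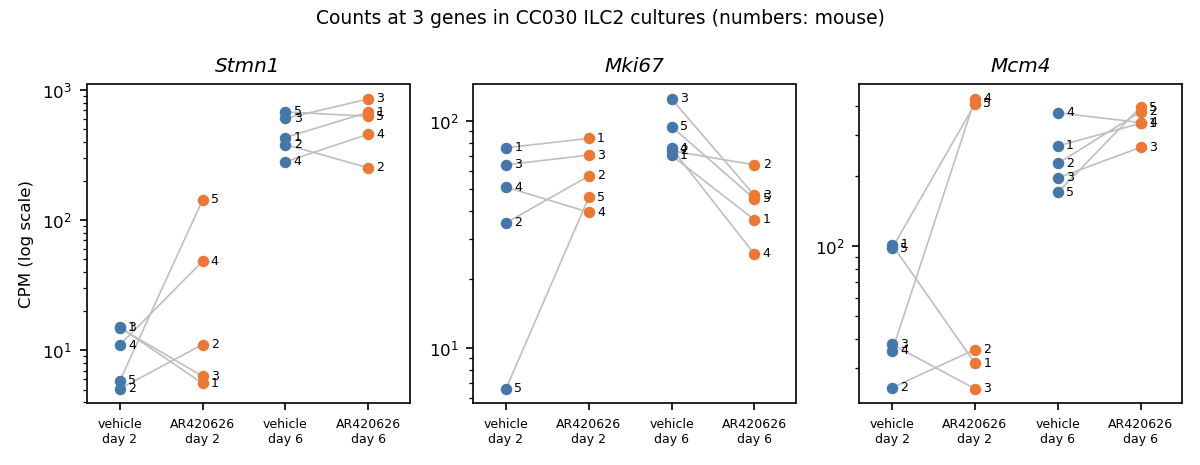
CPM on a log scale of Stmn1, Mki67 and Mcm4 in each cultured CC030 library (vehicle blue, AR420626 orange; numbers are mice, grey lines join the cultures of 1 mouse on 1 day). Stmn1 is higher at day 6 in both treatments (253 to 853 CPM), Mcm4 in all 5 vehicle but 3 of 5 AR420626 mice, and Mki67 at day 6 is lower with AR420626 in all 5 mice.

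AR420626 against vehicle left nearly all members without a call. At day 2, 30 members were tested with edgeR and 0 were called in either direction, beside 0% of 20865 genes called higher and 0% lower. In this contrast 0 members and 403 genes had an unadjusted p under 0.05, and DESeq2 called 0 members and, over all genes, 0 higher and 32 lower. Fitted changes ran from -1.38 to 0.65 on the log2 scale with a median SE of 0.66. At day 6, 13 members had enough counts to be tested, 0 were called higher and 1 lower, beside 3.3% of 9421 genes called higher and 8.14% called lower. The 1 member was Mki67, with 133, 119, 143, 259 and 159 counts in vehicle and 44, 91, 52, 31 and 49 with AR420626. It was lower in all 5 mice, at 25.9 to 64.1 CPM against 70.5 to 125, without overlap (-1.16 ± 0.25, adjusted p = 0.00198, edgeR). The call held when any 1 mouse was left out and was lost without both mice 4 and 5 (-0.89, adjusted p = 0.107). The counts around Mki67 matched C57BL/6J best at shifts that differed between the day 6 groups (-685 and 971 kb), so which RNA changed at this row was not tested. Top2a moved the other way, from 14.9 to 32.2 CPM in vehicle to 32.4 to 56.0 CPM with AR420626, higher in 5 of 5 mice, but did not pass (0.60 ± 0.29, adjusted p = 0.177, edgeR). Kif11 was lower in 5 of 5 mice and did not pass either (-0.89 ± 0.37, adjusted p = 0.119, edgeR). Mcm4 was higher in 4 of 5 mice with AR420626 at day 6 (0.38 ± 0.24, adjusted p = 0.317, edgeR).

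The difference between the effect of AR420626 at day 6 and at day 2 was tested as an interaction over all 20 cultured libraries. Of 30 members tested with edgeR, 0 were called in either direction, beside 0.0389% of 23141 genes called higher and 0.013% called lower. By unadjusted p under 0.05, 1 member passed in edgeR and 3 in DESeq2, and DESeq2 after adjustment called 0 of them. For Mki67, which passed at day 6 and not at day 2 (-0.32 ± 0.43), the difference of the effects was -1.27 ± 0.70 (adjusted p = 0.973, edgeR), so the effects at the 2 days were not shown to differ.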

How the data were processed

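The deposited data were 2 tables of raw read counts per Ensembl gene that the authors made: quality control with FastQC, trimming with fastp, alignment with STAR and counting with HTSeq, from SMART-Seq v4 libraries. C57BL/6J reads were aligned to mm10, and CC030 reads to an mm9-based pseudogenome and converted to mm10 with lapels. The versions of these tools stand in the study's methods and are not repeated here. Symbols, exon lengths and positions came from GENCODE vM21.

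Counts were scaled to CPM over counts in genes. The 5 HTSeq summary rows of the culture table were left out of totals (genes held 2.06% to 11.1% of its records). Tests used edgeR 4.0.16 (R 4.3.3; TMM, filterByExpr with a minimum count of 10 and total of 15, robust quasi-likelihood F-test), with Benjamini-Hochberg adjustment over all genes and a threshold of 0.05. Cultured comparisons were blocked by mouse, since the labels tie cultures to 5 individual mice; same-mouse libraries correlated in their deviations from group means at -0.17 to 0.261. DESeq2 1.42.0 was an alternative. The edgeR step was tested on simulated counts. Levels between genes were compared as log2(CPM per exonic kb + 0.1).

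Members and lists were chosen with earlier results of these data known. All members are named, as are the 4 highest genes of each further list in C57BL/6J and list genes on chromosome 16. Each library is a separate mouse or culture, and no library of a group repeated another.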

Additional observations from a re-analysis of the deposited data

Results flagged for a closer look

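In each cultured group of 5 libraries, the gap between the highest or lowest value of a member and its nearest neighbour was set against the whole range of the group. The gap was above Dixon's limit in 12 of 131 member and group pairs (9.16%). That limit flags about 1 in 20 groups of independent, normally distributed values. Members share libraries and many CPM values lie near 0, so no excess over chance is read from this share. Of these 12, 7 lay in the 3 day 2 libraries that stood apart in depth or gene number. All values are CPM. In AR420626 day 2, mouse 4 was far above the others at Bub1 (101, group median 33.3) and at Pcna (44, median 16.2) and far below them at Cdk1 (4.4, median 35.8). At 227445 counts, that library gives 3 counts a level of 13.2 CPM. Mouse 5 of the same group alone had counts at Cdc20 (0.979, median 0). In vehicle day 2, mouse 5 was low at Bub1 (0.752, median 32.5) and at Bub1b (0.564, median 22.8) and high at Ccnb2 (35.5, median 6.29). In vehicle day 6, mouse 3 was high at Bub1b (14.9, median 2.12), mouse 4 had 0 at Tyms (median 7.42), and mouse 5 alone had counts at Cdc20 (2.38, median 0). In AR420626 day 6, mouse 5 was high at Cdk2 (29.6, median 6.34) and mouse 4 low at Kif11 (3.34, median 20).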

How the results depend on the processing

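Depth limits the cultured comparisons, where members had few counts, and the number of libraries limits the naive ones. The causes of the changes below were not tested. S minus G2/M in C57BL/6J kept its sign under every alternative run, from 0.98 without replicate 1 to 2.82 without replicate 2, and was 2.04 without Hmgb2, an alternative chosen after seeing the data. The position check gave 0.416 without division by exon length, against 0.156.

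Between the strains, members called higher were 0 with at least 10 counts in every library, which drops Bub1 and Kif11, and 4 with the replicate number as a block, which adds Ccne1 and Mki67. These numbers are not a pairing, since same-numbered libraries correlated at -0.00781 to 0.00249 and 1 of 6 libraries correlated best with its own number. Leaving out 1 library gave 2 to 9 members higher and 5 to 10 lower, with 9 higher without C57BL/6J replicate 3 and 10 lower without replicate 1.

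For AR420626 at day 6, 1 member (Top2a) was called higher with at least 10 counts in every library, and 0 lower without mice 4 and 5. For day 6 against day 2 in vehicle, members called higher were 1 with no filter on low counts, 1 with at least 10 counts in every library, 4 without mice 4 and 5, and 1 to 5 when 1 mouse was left out. Lower were 1 (Pcna) with DESeq2 and 0 to 4 when 1 mouse was left out. For the same contrast with AR420626, higher were 2 with DESeq2, 0 with at least 10 counts, 3 without mice 4 and 5, and 0 to 2 when 1 mouse was left out. Lower were 0 with DESeq2 size factors, with no filter, without mice 4 and 5, and when any 1 mouse was left out. Fits without the block by mouse gave 3 members higher in vehicle over time, with Ccne2 added, and changed no other count of calls. No direction was reversed for a member called in the main fit or under the alternative. Changes of sign in members without a call were not counted. Of the values of single genes, 1521 kept their side of the threshold, 34 passed it only under the alternative and 19 lost it.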
